A study of Rattus norvegicus with 4 samples.

Results

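NAP given alone was compared with its vehicle, PBS, in CA3 tissue from the hippocampus of Sprague-Dawley rats. The comparison used 2 of the 4 arrays of the series, those whose labels name the neuroprotective peptide by itself and the PBS vehicle. Each array held RNA taken 24 h after an injection into the hippocampus. The other arrays, kainic acid (KA) and KA+NAP, served for the filter on dim genes and for the same peptide contrast in injured tissue. Neither array of this pair held tissue given KA, and both groups received an injection. How much injury the injection left on each side was not measured. Age, sex and the number of animals behind an array are not stated in the labels, and the peptide's concentration is stated for KA+NAP and not for NAP alone. Each side of the comparison was 1 array, so no value below carries a replicate error and nothing was tested: sizes and counts describe these 2 arrays.

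NAP is a short peptide taken from activity-dependent neuroprotective protein (ADNP), a chromatin-associated protein whose expression responds to the neuropeptides VIP and PACAP. The peptide has been described as acting on microtubules through end-binding proteins and as keeping neurons alive under toxic conditions. CA3 is the field of pyramidal neurons that receives the mossy fibres of the dentate gyrus and projects to CA1. Meninges and choroid plexus both lie near the hippocampus.

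The labelled tissue was checked against cell type markers on both arrays. CA3 markers were present: Grik4, a kainate receptor subunit, stood at an intensity of 407 with PBS and 325 with NAP, the copine gene Cpne4 at 918 and 886, and the BCL2 relative Bok at 1084 and 1033. Markers of neighbouring fields were present too. Mpped1, a CA1 marker, stood at 1448 with PBS and 889 with NAP, and Prox1, the transcription factor of dentate granule cells, at 932 and 1194. Markers of more than CA3 were thus present on both arrays.

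Log2 intensities of the 9489 genes past the filter correlated between the PBS and NAP arrays at r = 0.98. The median of all NAP minus PBS differences was 0.02 on the log2(intensity + 10) scale, on which every difference below is given, and the central 95% of them lay between −0.53 and 0.70. On the NAP array 100 genes stood 2-fold or more above PBS, which is 1.05% of those measured, and 23 stood 2-fold or more below it, which is 0.242%, or 1.3% in either direction. Without any intensity filter, 1.89% of 14217 named genes stood 2-fold or more above PBS, 1.33% as far below, and 51.7% above 0. The spread of the differences depended on intensity. Among the 1898 dimmest genes the standard deviation was 0.39 and 2.16% reached 2-fold in either direction. Among the 1898 brightest it was 0.23 and 0.421% did. On the PBS array, 42 of the 100 higher genes were at or under the filter threshold of 62.75. Signs of RNA quality moved with the comparison: for beta-actin, the signal of the 3′ control probe set over that of the 5′ one was 14.1 with PBS and 7.92 with NAP, that of hexokinase was 8.0 and 6.05, and that of GAPDH was 1.45 and 1.40. The part of RNA quality in the differences was not tested.

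**Figure D1:**
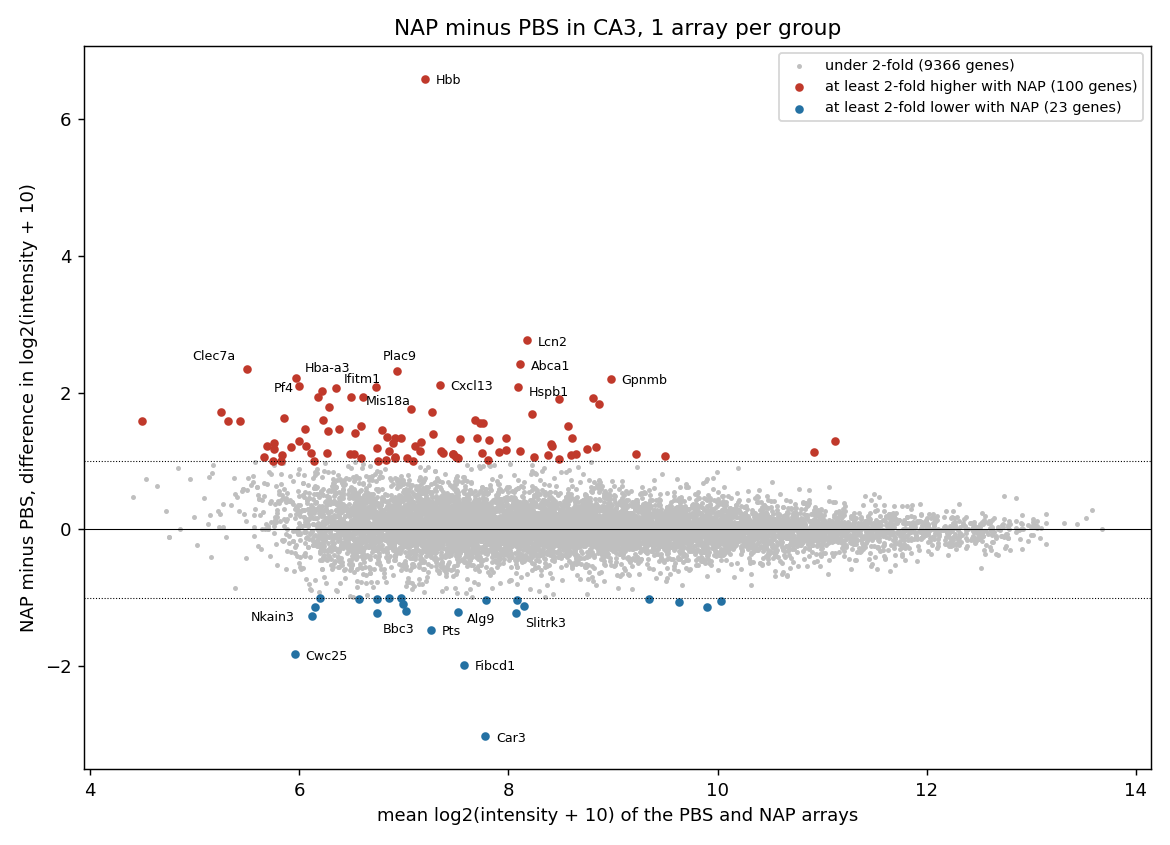
NAP minus PBS differences in log2(intensity + 10) plotted against the mean log2(intensity + 10) of the 2 arrays, 1 point per gene, with dotted lines at 2-fold. The 100 genes at least 2-fold higher (red) outnumber the 23 lower ones (blue), Hbb stands apart at 6.58 and Car3 at −3.03.

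The genes through which the peptide is thought to act were nearly level between the arrays. Adnp itself had an intensity of 1386 on both arrays. Its 3 other probe sets, 2 of them past the filter, had differences of −0.05, −0.16 and −0.71, the last from intensities of 21 and 9. The paralogue Adnp2 was at 256 with PBS and 286 with NAP, the neuropeptide gene Vip at 574 and 569, and the PACAP gene Adcyap1 at 235 and 314. The receptors Adcyap1r1 and Vipr1 differed by 0.30 and 0.20. None of the 6 members of the ADNP, VIP and PACAP list past the filter reached 2-fold. The same held for the 15 measured SWI/SNF, CHD and heterochromatin protein genes that work with ADNP in chromatin, whose differences lay between −0.45 (Arid1b) and 0.41 (Chd3).

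Microtubule genes were likewise close to level, with 1 exception. Among 23 microtubule-associated and end-binding protein genes none reached 2-fold, the median was −0.06, the end-binding protein genes Mapre1 and Mapre3 were at −0.08 and 0.06, and the kinesin heavy chain gene Kif5c had the largest difference, −0.58. That of Kif5c rested on 1 probe set, since the mean over its probe sets was 0.00. Of 10 tubulin genes, 9 lay between −0.23 and 0.20. The tenth was Tubb6, a beta tubulin found mostly outside neurons, at 40 with PBS and 128 with NAP, a difference of 1.46. The KA array had 1616 and the KA+NAP array 1923, so the NAP array stood between the PBS array and the arrays with KA.

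The largest difference of all was that of the beta-globin gene Hbb, which went from 5 with PBS to 1430 with NAP. The difference of 6.58 depends on the pseudocount, and lay between 5.30 and 7.90 with pseudocounts of 32 and 1. Its probe set is of a type that can bind related transcripts. Next came Lcn2 (lipocalin 2, an iron-siderophore binding protein of the acute phase), which rose from 101 to 743, the cholesterol exporter gene Abca1 (110 to 629), the beta-glucan receptor gene Clec7a (10 to 92), Plac9 (45 to 263), the alpha-globin gene Hba-a3 (19 to 125), and Gpnmb, a glycoprotein of phagocytes (225 to 1073). The B-cell chemokine Cxcl13 (68 to 327), platelet factor 4 (Pf4, 21 to 122), the centromere protein gene Mis18a (42 to 209), the small heat shock protein gene Hspb1 (123 to 550), Ifitm1 (30 to 157), the NADPH oxidase subunit gene Cybb (27 to 140), the protease gene Prss35 (36 to 166) and the chemokine gene Ccl2 (40 to 181) completed the 15 highest. Many of these genes were dim on the PBS array, and Clec7a passed the filter through the arrays with KA. Abca1 and Plac9 were not borne out by their further probe sets, which differed by 0.29, 0.24 and −0.12 for Abca1 and by −0.29 for Plac9.

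The lowest difference was that of carbonic anhydrase 3 (Car3), at 617 with PBS and 67 with NAP. A second, dim probe set of Car3 was also lower, at 36 and 10. Agap2, also among the 15 lowest at 1495 and 722, had a dim second probe set that went the other way, at 27 and 57. Fibcd1, a chitin receptor gene and CA1 marker, followed with 368 and 86, then the splicing factor gene Cwc25 with 107 and 23 and Pts, an enzyme of tetrahydrobiopterin synthesis, with 245 and 82. Slitrk3, which encodes a synaptic adhesion protein, was at 400 and 166, Alg9 at 268 and 110, and Polr3k, an RNA polymerase III subunit gene, at 1403 and 632. Nkain3, the pro-apoptotic gene Bbc3 (Puma), Llph, Tmem231, the class I gene RT1-T24-3, Creg2, the ribonuclease gene Rnase4 and Agap2 made up the rest of the 15, with differences between −1.26 and −1.04. Rnase4 had a second probe set past the filter at −0.80.

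Most genes at 2-fold rested on a single probe set, and further probe sets, where present, often differed less. More than 1 probe set passed the filter for 2080 genes, of which 13 had a 2-fold difference. In 12 of the 13 all such probe sets had the same sign, and in 4 each of them was 2-fold apart: the collagen gene Col1a2 (1.72 and 2.06), the ferroxidase ceruloplasmin Cp (intensities of 214 to 631, 141 to 441 and 189 to 553), the lysosomal protease gene Ctsc (1.12 and 1.75) and the amino acid transporter gene Slc6a20a (1.84 and 1.40). The exception was the acetyltransferase gene Kat6b, at 1.10 and −0.17. The other 110 genes at 2-fold rested on 1 probe set past the filter.

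Many markers of leptomeningeal and perivascular fibroblasts, the cells that line the brain surface and its large vessels, were higher on the NAP array. Of 17 members past the filter, 12 were at least 2-fold higher on the NAP array, against 1.05% of all genes. None was at least 2-fold lower, and the median was 1.26. Like all 47 gene lists, this one was chosen with earlier results of these data known. Its counts describe the list and are not an independent finding. Without a filter, 1.89% of all named genes were at least 2-fold higher and 51.7% lay above 0. Over all 26 named members of the list, dim ones included, 14 were at least 2-fold higher, 22 lay above 0 and the median was 1.06. Their summed intensity was 4729 on the PBS array and 9646 on the NAP array, against 4838 with KA and 5957 with KA+NAP. The NAP array was thus the highest of the 4 for the list as a whole.

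Single members differed in which array was highest. Osteoglycin (Ogn), a small leucine-rich proteoglycan, stood at 63 with PBS, 59 with KA, 110 with KA+NAP and 237 with NAP. Insulin-like growth factor 2 (Igf2), which adult brain makes largely in meninges and choroid plexus, stood at 157, 119, 232 and 528 in the same order. Col1a2 and Col3a1, chains of fibrillar collagens, were at 75 and 80 with PBS, at 270 and 200 with NAP, and no higher than 136 on either array with KA. For these 4 genes the NAP array was the highest and the PBS and KA arrays were the lowest. Aebp1 (66 with PBS, 182 with NAP) and the matrix Gla protein gene Mgp (256 and 557) were also at least 2-fold higher than with PBS, but were highest with KA+NAP, at 228 and 909. Islr (67 and 175) and the complement inhibitor gene Serping1 (235 and 611) were also at least 2-fold higher. So were transporters and enzymes: Slc6a20a went from 236 to 870, and prostaglandin D synthase Ptgds, an abundant meningeal product, from 1295 to 2855. Decorin (Dcn, 247 and 359), Igfbp2 (a difference of 0.85), Fmod (50 and 76) and Pdgfra (844 and 1071) were higher by less than 2-fold, and lumican (Lum) was at 358 and 318. Of the defining markers, the transcription factor genes Foxc1 and Zic1 were dim, at 23 and 19 with PBS and at 17 and 12 with NAP. No member was at 0 on the PBS or NAP array. The part of adhering meninges in these values was not tested, and in bulk tissue more cells of a type and more RNA per cell cannot be told apart.

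The leptomeningeal list includes a pair of retinoic acid genes. Aldh1a2, the enzyme that makes retinoic acid there, stood at 121 with PBS and 321 with NAP, and the retinoic acid binding protein gene Crabp2 at 33 and 120. Crabp2 was highest with KA, at 282. The other carriers and enzymes of retinoids and thyroid hormone did not reach 2-fold, and 2 of 8 in all did, against 1.3% of all genes. Transthyretin (Ttr), the product by which choroid plexus is recognised, was at 354 with PBS and 359 with NAP. Of 6 choroid plexus and ependymal markers past the filter none reached 2-fold and the median was 0.00. The defining choroid plexus genes Folr1 and Kcnj13 were at 35 and 30 with PBS and 30 and 34 with NAP.

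Among other matrix genes fewer reached 2-fold. All 7 collagen genes past the filter lay above 0 and 3 were at least 2-fold higher: Col1a2, Col3a1 and Col6a3, a microfibrillar collagen, at 37 and 117. The remaining 4 (Col4a2, Col5a2, Col4a1 and Col12a1) lay between 0.23 and 0.67. Of all genes past the filter, 54% lay above 0 and 1.05% were at least 2-fold higher. Over all 16 collagen genes, 14 lay above 0 and 5 were at least 2-fold higher. Without a filter, 51.7% and 1.89% of all named genes were. Of 16 matrix glycoproteins and proteoglycans past the filter, 13 lay above 0 and 2 reached 2-fold: osteopontin (Spp1), at 47 with PBS and 153 with NAP, and fibronectin (Fn1), at 290 and 683. Both were higher still on the arrays with KA, where Spp1 stood at 1087 (KA) and 3248 (KA+NAP) and Fn1 at 994 and 2274. In the IGF system, Igf2 was the single gene of 9 at 2-fold. The growth factor gene Igf1 was at −0.58, and at −0.20 as the mean of its probe sets.

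Endothelial markers lay mostly above 0 by small amounts. All 14 endothelial markers past the filter lay above 0, where 54% of all genes did, with a median of 0.40, while Pecam1, which did not pass it, was at 36 and 34. Von Willebrand factor (Vwf), stored in endothelial granules and platelets, was the 1 member at 2-fold, at 210 with PBS and 511 with NAP. Past the filter, 1.05% of all genes were at least 2-fold higher. The tight junction gene Cldn5 was at 577 and 717, the VEGF receptor gene Flt1 at 104 and 181, and the angiopoietin receptor gene Tek at 375 and 568. Pericyte and smooth muscle markers were divided, with 6 of 10 above 0 and only Tagln (transgelin) at 2-fold (136 and 308). Pdgfrb and Notch3, which define mural cells, were dim, at 30 and 44 with PBS and 24 and 25 with NAP. Their median was 0.28 past the filter and −0.22 over all 15 members. Blood genes beyond the globins were also higher. Alas2, the haem synthesis enzyme of red cell precursors, was at 3 with PBS and 20 with NAP, below the filter threshold on each array. The neutrophil genes S100a9 and S100a8 were at 13 and 16 with PBS and at 59 and 40 with NAP, and passed the filter through the arrays with KA. The summed intensity of the 6 listed blood genes was 175 with PBS and 1762 with NAP, most of it Hbb, and none was at 0 on either array. The part of blood in the vascular, phagocyte and other values was not tested.

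**Figure D2:**
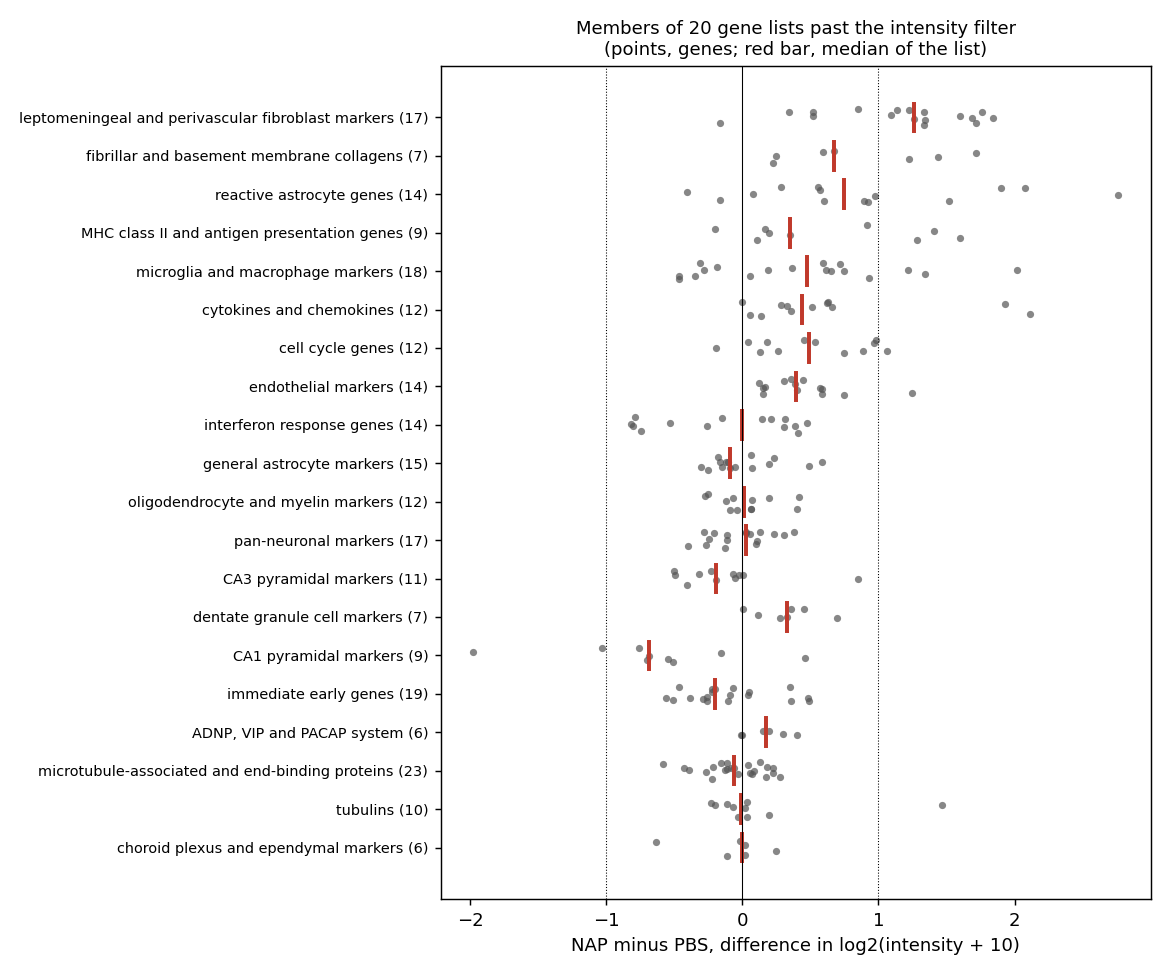
NAP minus PBS differences in log2(intensity + 10) for the members of 20 gene lists past the intensity filter, 1 point per gene with the number of genes in brackets, the list median as a red bar and dotted lines at 2-fold. Leptomeningeal and fibroblast markers have a median of 1.26 and CA1 pyramidal markers one of −0.68, while pan-neuronal, myelin and tubulin genes cluster at 0.

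Some phagocyte genes were higher on the NAP array and other markers of microglia were not. Of 18 microglia and macrophage markers past the filter, 3 were at least 2-fold higher and 12 lay above 0, with a median of 0.48. Of all genes past the filter, 1.05% were at least 2-fold higher and 54% lay above 0. Over all 20 members, 13 lay above 0, against 51.7% of all named genes without a filter, and the median was 0.30. Cybb, the catalytic subunit of the phagocyte oxidase, stood at 27 with PBS and 140 with NAP. The endotoxin co-receptor gene Cd14 stood at 69 and 190, and the lysosomal protein gene Cd68 at 24 and 69. Cd68 passed the filter through the arrays with KA, being near or under its threshold on this pair. The signalling adaptor Tyrobp (54 and 112), Ptprc (CD45, 83 and 146), Aif1 (203 and 341) and Itgam (56 and 91) were higher by less than 2-fold. Genes of resting microglia were divided. P2ry12, the ADP receptor that steers microglial processes, was at 1071 with PBS and 773 with NAP, Tmem119 at 289 and 253, and Gpr34 at 217 and 173, while the fractalkine receptor gene Cx3cr1 was at 42 and 51 and the CSF1 receptor gene Csf1r at 414 and 430. The summed intensity of all 20 members was 8361 with PBS and 8044 with NAP. The lysosomal protease gene Ctss, at 3777 and 3107, made up much of that sum.

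Macrophages of the brain's borders, which reside in meninges and perivascular spaces, had markers of dim signal that lay mostly above 0. Of 9 named markers, 8 lay above 0 and 3 were at least 2-fold higher: Pf4, the folate receptor gene Folr2 (22 and 76) and the coagulation factor gene F13a1 (24 and 59). Without a filter, 51.7% of all named genes lay above 0 and 1.89% were at least 2-fold higher. The mannose receptor gene Mrc1 was at 62 with PBS and 111 with NAP, and Lyve1 at 137 and 196. The exception was Cd209f, at 3 and 2. Only Pf4, Mrc1 and Lyve1 passed the filter. Cd163, a defining marker, was at 10 and 22.

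The genes of the class II chains and the invariant chain were higher on the NAP array, while other genes of antigen presentation differed less or were lower. Class II molecules display peptides to T cells and are made by macrophages, dendritic cells and activated microglia. RT1-Ba, the alpha chain of the B molecule, had an intensity of 47 with PBS, 57 with KA, 431 with KA+NAP and 141 with NAP. RT1-Db1 stood at 31, 59, 208 and 90 in that order, RT1-Da at 99, 140, 805 and 196, and the invariant chain Cd74 at 108, 211, 821 and 348. RT1-Bb, which did not pass the filter, was at 14 with PBS and 38 with NAP. For each of these 5 genes both arrays with the peptide were above both arrays without it. RT1-Da was just under 2-fold in NAP minus PBS, at 0.92. The peptide loading genes RT1-DMa and RT1-DMb were at 0.20 and 0.17, and the proteasome genes Psmb8 and Psmb9 at 0.11 and −0.20. The light chain gene B2m was at 0.35 and the peptide transporter genes Tap1 and Tap2, both dim, at 0.27 and −0.46. Over the list, 3 of 9 genes past the filter were at least 2-fold higher, against 1.05% of all genes, and the median was 0.35. RT1-Db1, 1 of the 3, passed the filter through the arrays with KA. The class II transactivator Ciita was dim, at 25 with PBS and 13 with NAP. The windows of 250 bases before the annotated starts of the 4 class II chain genes are printed because these genes were high and low on the same arrays. They come from RefSeq on GRCr8, given on the strand of the gene, and the capitals mark the longest run that all 4 share.
RT1-Ba, chr20:4576807-4577056 (+): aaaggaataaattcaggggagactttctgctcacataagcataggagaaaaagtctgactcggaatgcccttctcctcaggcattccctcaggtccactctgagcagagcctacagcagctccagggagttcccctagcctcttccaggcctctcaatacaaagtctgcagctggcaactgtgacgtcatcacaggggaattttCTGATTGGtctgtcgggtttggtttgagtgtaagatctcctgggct
RT1-Bb, chr20:4604119-4604368 (-): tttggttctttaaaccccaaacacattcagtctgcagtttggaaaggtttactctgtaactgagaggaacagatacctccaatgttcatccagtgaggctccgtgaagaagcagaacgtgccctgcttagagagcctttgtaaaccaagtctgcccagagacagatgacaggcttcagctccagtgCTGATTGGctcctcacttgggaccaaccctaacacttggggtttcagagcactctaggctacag
RT1-Da, chr20:4515165-4515414 (+): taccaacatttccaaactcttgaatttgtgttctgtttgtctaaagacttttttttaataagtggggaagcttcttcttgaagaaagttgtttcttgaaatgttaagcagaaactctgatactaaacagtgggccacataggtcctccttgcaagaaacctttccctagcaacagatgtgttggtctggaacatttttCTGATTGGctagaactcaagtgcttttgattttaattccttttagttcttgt
RT1-Db1, chr20:4560163-4560412 (-): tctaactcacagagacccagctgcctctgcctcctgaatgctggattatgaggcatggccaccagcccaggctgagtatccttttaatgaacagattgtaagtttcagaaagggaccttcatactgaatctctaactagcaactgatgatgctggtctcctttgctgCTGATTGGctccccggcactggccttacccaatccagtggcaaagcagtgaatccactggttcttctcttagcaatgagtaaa

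The shared run CTGATTGG holds an inverted CCAAT box, the core of the Y box of class II promoters. Its last base lay 39 bases before the start of RT1-Ba, 57 before that of RT1-Bb, 45 before that of RT1-Da and 76 before that of RT1-Db1. On either strand (CTGATTGG or CCAATCAG) the run occurred in 3.19% of 33469 windows of the same length. The run was found by comparing these 4 windows with each other and describes their letters only.

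Many reactive astrocyte genes were higher on the NAP array than with PBS. The list had summed intensities of 2606 with PBS, 5728 with NAP, 19365 with KA and 24696 with KA+NAP. Of 14 past the filter, 12 lay above 0 in NAP minus PBS, 4 were at least 2-fold higher and the median was 0.75. Of all genes past the filter, 54% lay above 0 and 1.05% were at least 2-fold higher. Over all 18 named members 5 were at least 2-fold higher, against 1.89% of all named genes without a filter, and the median was 0.58. Timp1, an inhibitor of metalloproteinases, stood at 175 with PBS, 680 with NAP, 1924 with KA and 2589 with KA+NAP. Hspb1 stood at 123, 550, 5423 and 5894. Lcn2 behaved differently, with 101 and 144 on the PBS and KA arrays and 743 and 852 on the arrays with the peptide. Cp was highest with NAP, at 214, 631, 287 and 422. Vimentin (Vim, 851 with PBS and 1588 with NAP), the hyaluronan receptor gene Cd44 (44 and 96) and S1pr3 (143 and 280) were just under 2-fold. Nes (55 and 48) and Sphk1 (31 and 21) were lower, as were Socs3 (29 and 13) and Cxcl10 (19 and 17), which did not pass the filter. General astrocyte markers were level, with none of 15 at 2-fold and a median of −0.09. Gfap stood at 0.49 and the glutamate transporter gene Slc1a2 at 0.58.

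Among secreted immune signals, 2 of 12 cytokine and chemokine genes past the filter reached 2-fold, Cxcl13 and the monocyte attractant Ccl2. Of all genes 1.3% did. Ccl2 stood at 40 with PBS and 181 with NAP, and far higher on both arrays with KA, at 5786 and 5291. Cxcl13 was also higher with NAP than with PBS but was lowest on the arrays with KA, at 327 with NAP, 68 with PBS and 14 and 35 with KA and KA+NAP. Ccl7 (10 and 21), Il18 (85 and 140) and Cxcl12 (1711 and 2644), a chemokine of meninges and granule cells, were higher by less than 2-fold. Il1b, Tnf and Il6 did not pass the filter and stood at 42, 16 and 10 with PBS and 39, 17 and 3 with NAP. The listed interferon response genes were split, with 7 of 14 above 0, against 54% of all genes, and none at 2-fold. Irf7 (172 and 93), Gbp2 (348 and 195), Mx2 (168 and 93) and Usp18 (82 and 45) lay between −0.82 and −0.74, and Mx1, Rsad2 and Ifitm3 between 0.38 and 0.48. Ifitm1 (30 and 157) and Ifitm2 (42 and 103), of the family of Ifitm3 but not on the list, were at least 2-fold higher.

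Cell cycle genes lay mostly above 0 and rarely reached 2-fold. Of 12 past the filter 11 lay above 0, against 54% of all genes, with a median of 0.49. The mitotic kinase gene Cdk1 (25 with PBS and 63 with NAP) was the 1 member at 2-fold, against 1.05% of all genes. The proliferation marker Mki67 (24 and 57) and the topoisomerase gene Top2a (31 and 70) were just under it. These 3 genes passed the filter through the arrays with KA, being near or under its threshold on the pair compared here. Over all 19 named members, 16 lay above 0 and 2 were at least 2-fold higher. Without a filter, 51.7% of all named genes lay above 0 and 1.89% were at least 2-fold higher. Among dim members, Ccnb2 (3 and 37) was higher, while Birc5 (30 and 25) and Aurkb (46 and 35) were lower.

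Neuronal genes as a whole were level. None of 17 pan-neuronal markers reached 2-fold, their median was 0.02, and their summed intensity was 55826 with PBS and 52523 with NAP. The largest differences were −0.40 for the RNA-binding protein gene Elavl4 and 0.38 for Elavl3. None of 15 genes of vesicle release, 14 voltage-gated channel genes, 12 ionotropic glutamate receptor subunit genes or 7 GABA-A subunit genes reached 2-fold. Their medians were −0.03, −0.13, 0.00 and 0.27. Among kainate receptor subunits, Grik1 was at −0.41, Grik4 at −0.32 and Grik5 at 0.23. Of 19 immediate early genes, which report recent neuronal activity, 13 lay below 0, where 45.2% of all genes did, and none reached 2-fold. Fos, Arc and the neurotrophin gene Bdnf had differences of 0.35, −0.26 and −0.03. Myelin genes had a median of 0.01.

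Markers of the hippocampal fields had medians on either side of 0. Of 9 CA1 markers past the filter, 8 lay below 0, 2 were at least 2-fold lower and the median was −0.68. Of all genes past the filter, 45.2% lay below 0, 54% above it, and 0.242% were at least 2-fold lower. Fibcd1 stood at 368 with PBS, 86 with NAP, 72 with KA and 226 with KA+NAP. Pou3f1, a POU transcription factor of CA1 neurons, stood at 376, 179, 84 and 450, neurotensin (Nts) at 616, 360, 46 and 483, and Mpped1 at 1448, 889, 334 and 1159. In these 4 genes the PBS and KA+NAP arrays were the higher ones. Wfs1, whose loss causes Wolfram syndrome, stood at 145 with PBS and 96 with NAP, and the repressor gene Zbtb20 at 1894 and 1176. Ccn3, a matricellular protein, was the 1 marker above 0, at 330 and 459. Dentate granule cell markers lay on the other side. All 7 past the filter were above 0, with a median of 0.33, led by the dynorphin precursor Pdyn (1146 and 1858) and the TRP channel gene Trpc6 (165 and 229). Of 11 CA3 markers past the filter 9 lay below 0, the lowest being Neurod6 at −0.50, with a median of −0.19, and the cochlin gene Coch was at 0.85 (107 and 201). CA2 markers had a median of 0.00. The share of each field in the dissected pieces was not measured, and its part in these values was not tested.

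**Figure D3:**
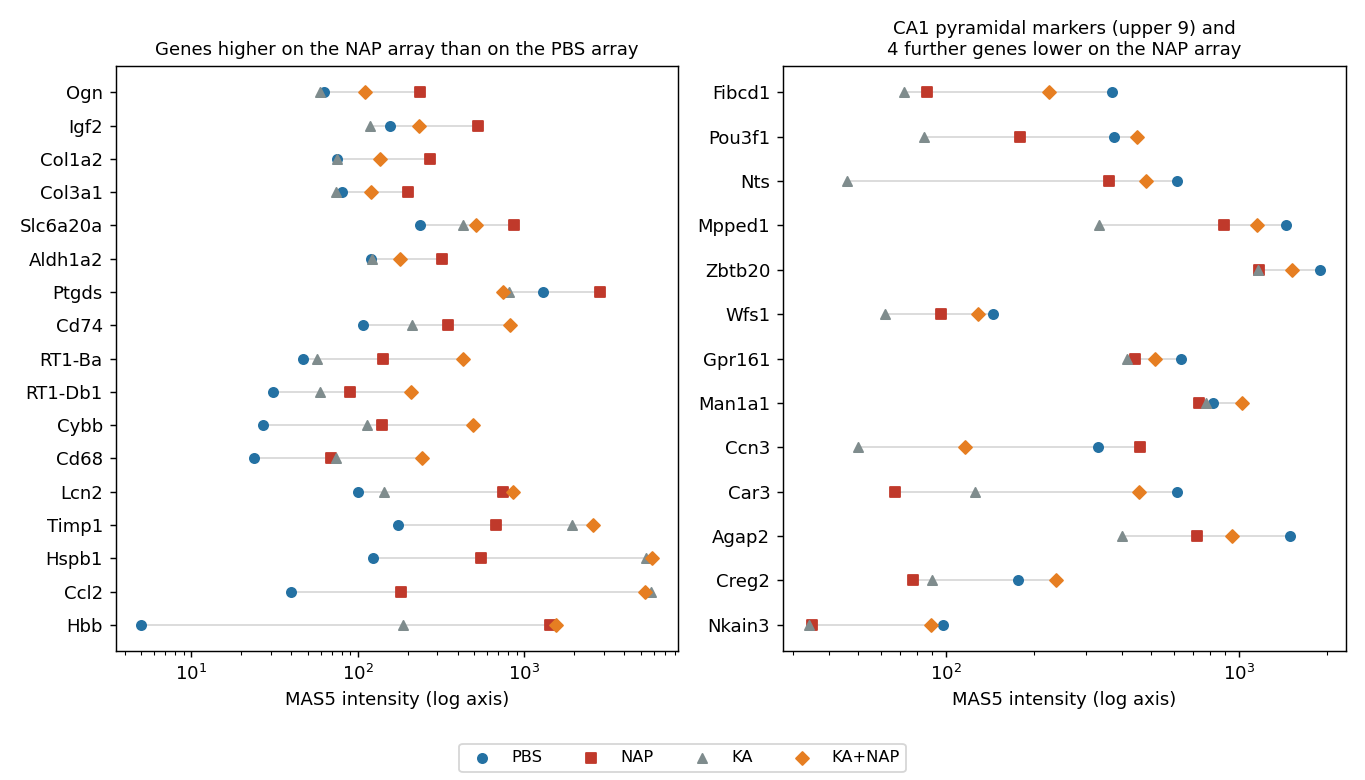
MAS5 intensity on a log axis for 17 genes higher on the NAP array (left) and for 9 CA1 markers and 4 further genes (right), with 1 symbol per array and a grey line from the lowest to the highest. Meningeal genes from Ogn to Ptgds are highest with NAP, class II and phagocyte genes are highest with KA+NAP, and 8 of the 9 CA1 markers are lower with NAP than with PBS.

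Single neuronal genes stood out from these groups. The cerebellin gene Cbln1, a synapse organiser, was at 30 with PBS and 82 with NAP, and the substance P precursor gene Tac1 at 29 and 73. Both genes passed the filter through the arrays with KA. A second probe set of Cbln1 past the filter differed by 0.53. Cbln1 was under 2-fold as the mean over its probe sets (0.87) and with a pseudocount of 32 (0.88). Trh, which encodes thyrotropin-releasing hormone, differed by 0.89 from dim signal. Among interneuron markers, Pvalb was at −0.71 and Cck at −0.52, and the median of 13 was −0.01. Of monoamine and acetylcholine receptor genes, the serotonin receptor gene Htr5b had the largest difference, from 191 to 97, and none of 8 reached 2-fold. Bbc3 was the 1 gene of 11 in the p53 and BCL2 list at 2-fold, against 1.3% of all genes. It stood at 154 with PBS and 60 with NAP. Heat shock genes other than Hspb1, together with the antioxidant, ER stress, clock, cholesterol synthesis, ribosomal protein, respiratory chain and housekeeping lists, had no gene past the filter at 2-fold and list medians between −0.14 and 0.21.

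NAP minus PBS was set beside KA+NAP minus KA, which asks about the same peptide in injured tissue and shares no array with it. Over 9489 genes the 2 differences correlated at Pearson r = 0.12 and Spearman rho = 0.04, as a description across genes, which share libraries and are not independent. Among the 100 genes that NAP minus PBS placed 2-fold or more above 0, 78 lay above 0 in KA+NAP minus KA, against 53.8% of all genes. Of those 100, 30 were at least 2-fold higher there too, against 1.52% of all genes (2.12% in either direction), and they made up 20.8% of the genes that were 2-fold higher in injured tissue. The filter takes in the arrays with KA, so some of the 30 passed it through the array on which they were high. For 9 of them (Clec7a, Igsf6, Fermt3, S100a9, RT1-Db1, Myo1f, Cd68, Cdk1 and Timeless) the mean of the PBS and NAP arrays was at or under the threshold, and their KA+NAP intensities were 163 to 559. With the filter on the PBS and NAP arrays alone the overlap was 23 of 95, or 24.2%, against 1.26% of all genes, and with no filter it was 51 of 269, or 19.0%, against 2.60%. Genes that were at least 2-fold higher in both included the globin genes Hbb and Hba-a3, Lcn2, Clec7a, Cybb, Cd68, Cd74, RT1-Ba, RT1-Db1, S100a9, Spp1, Fn1, Vwf and Cdk1. The phagocyte oxidase gene Cybb differed by 2.02 without and 2.03 with KA, Cd74 by 1.60 and 1.91, and Lcn2 by 2.76 and 2.48. The part of the globin and phagocyte signal in this overlap was not tested.

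The lower genes were few. Of the 23 genes at least 2-fold lower in NAP minus PBS, 18 lay above 0 in KA+NAP minus KA, against 53.8% of all genes. Of the 23, 6 were at least 2-fold higher there, against 1.52% of all genes. None was at least 2-fold lower, which at 0.601% of all genes is too rare to read from so few. Without the filter 53.4% of the lower genes lay above 0, against 52.7% of all genes. There 14 of 189 were at least 2-fold higher, against 2.60% of all genes. The 6 past the filter were Car3, Fibcd1, Pou3f1, Creg2, Agap2 and Nkain3. Meningeal markers had a median of 0.63 in injured tissue, against 1.26 in NAP minus PBS. In injured tissue 1 of 17 was at least 2-fold higher, against 1.52% of all genes. The median of the microglia and macrophage list was 0.85 there against 0.48 in NAP minus PBS, that of the class II and antigen presentation list 1.10 against 0.35, and that of CA1 markers 1.07 against −0.68. Whether these pairs of values differ was not tested, since each is from 1 array a side.

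**Figure D4:**
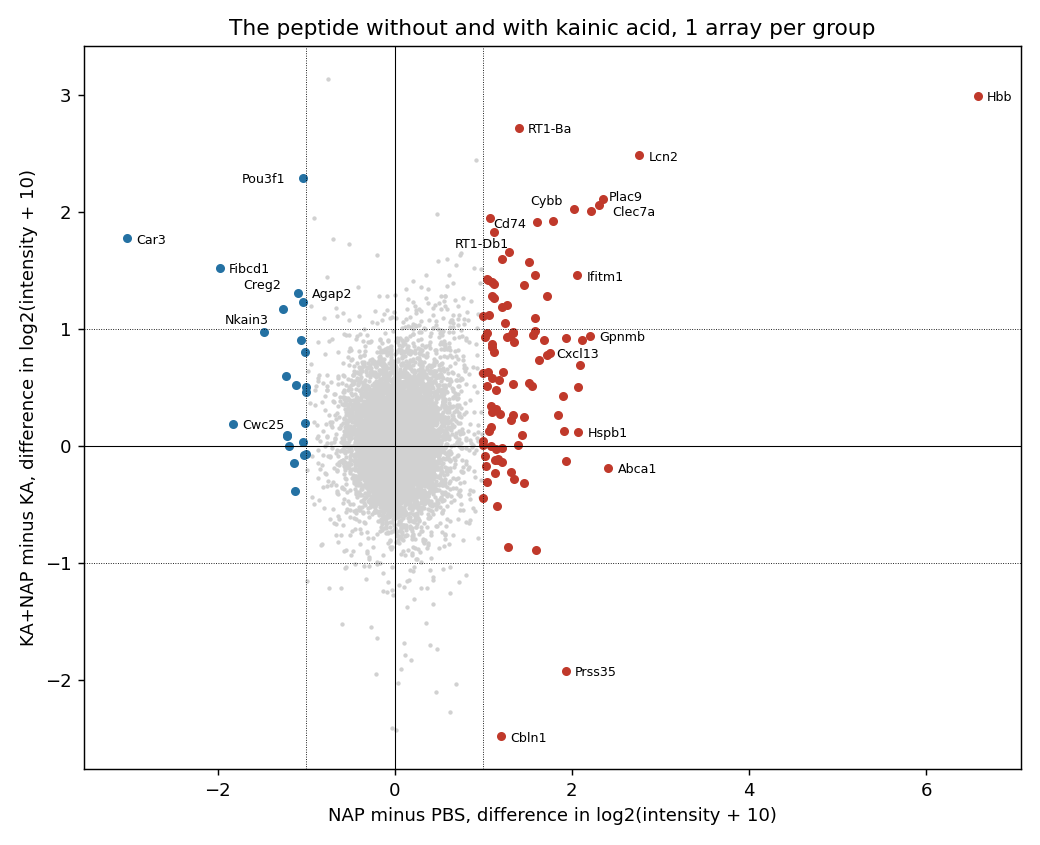
NAP minus PBS (horizontal) against KA+NAP minus KA (vertical), both as differences in log2(intensity + 10), 1 point per gene, with genes at least 2-fold higher (red) or lower (blue) in NAP minus PBS and dotted lines at 2-fold. Of the 100 red genes 78 lie above 0 on the vertical axis, and so do 18 of the 23 blue ones, against 53.8% of all genes.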

How the data were processed

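RNA of the hippocampal CA3 area was hybridised to 1 array for each of the 4 groups. Per the submitters' processing notes the authors made the deposited values with MAS5, as linear intensities, and the trimmed mean of each array was 250.1, so the arrays were already scaled alike. Of 31099 probe sets, 20826 had 1 gene symbol in the platform annotation, 436 had several, 9780 were not listed and 57 were controls. Entrez numbers matched RefSeq genes for 20758 of the 20826. The brightest probe set stood for each of 14217 genes, and 9489 with a mean over the 4 arrays above 62.75, the median of non-control probe sets, were kept. From the deposited intensity, differences were taken on the log2(intensity + 10) scale, with 2-fold as a rule of size. This pseudocount understates the differences of dim genes. With 1 array a group there was no test, and the number of arrays limits the precision. The members and the 47 gene lists were chosen with earlier results of these data known. The genes named were the 15 highest and 15 lowest, those at 2-fold in all of several probe sets, the largest members of each list, every member of a list with many at 2-fold, and a few of the peptide's pathway. Others named from the lists were chosen after their values were seen. The alternatives were other pseudocounts (1 and 32), other filters, the mean over probe sets, quantile normalization and lowess centring. The calculation was tested on simulated data with differences planted in bright genes only. That test does not show how well differences of dim genes are recovered. Python 3.11.15, numpy 2.4.6, pandas 2.3.3 and statsmodels 0.14.6 were used.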

Additional observations from a re-analysis of the deposited data

Results flagged for a closer look

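For 8 of 9489 genes NAP minus PBS and KA+NAP minus KA lay on opposite sides of 0 by at least 2-fold each. In either direction, 1.3% of all genes were 2-fold apart in the first comparison and 2.12% in the second. The second difference less the first is given on the log2(intensity + 10) scale. It was 4.80 for Car3, 3.50 for Fibcd1, 3.32 for Pou3f1, 2.43 for Nkain3, 2.41 for Creg2 and 2.27 for Agap2, which were lower with NAP alone and higher with the peptide after KA. It was −3.86 for Prss35 and −3.68 for Cbln1, which had the reverse order. A dim second probe set of Agap2 was higher with NAP, at 27 with PBS and 57 with NAP. Nkain3 was dim, with a mean of 64 over the 4 arrays against a filter threshold of 62.75. Cbln1 stood at 30 with PBS, 82 with NAP, 521 with KA and 85 with KA+NAP. Its NAP minus PBS difference was under 2-fold as the mean over its probe sets, at 0.87. With 1 array a side, these differences between the contexts were not tested.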

How the results depend on the processing

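No paired analysis was possible because each group had 1 array, and no array could be left out. The 100 higher and 23 lower genes became 66 and 12 with a pseudocount of 32, 269 and 189 without an intensity filter, and 37 and 5 with the filter at the 75th percentile. Higher genes made up 81.3% of those at 2-fold, and 58.7% without the filter. Without it, 63.9% of higher and 53.4% of lower genes lay above 0 in KA+NAP minus KA, against 78% and 78.3%. The median of blood genes, 1.26, was 1.68 and 0.80 with pseudocounts of 1 and 32, 6.58 with the filter at the 75th percentile, 3.57 with a filter on the PBS and NAP arrays alone and 1.64 after quantile normalization. That of collagens, 0.67, was 1.22 with a filter on those 2 arrays alone. That of pericyte markers turned to −0.22 without the filter. The cause was not tested. No named gene that was at least 2-fold apart changed sign under these alternatives, and Kif5c went from −0.58 to 0.00 with the mean over probe sets. Some genes at 2-fold fell under it. With a pseudocount of 32, Cd68 was at 0.85, Cdk1 at 0.74 and RT1-Db1 at 0.95. Abca1 was at 0.98 as the mean over its probe sets. Intensities near background limit the dim genes most.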

Other observations

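Of 10216 probe sets without a single gene symbol, controls left out, 3359 passed the intensity filter. In NAP minus PBS, 33 of these stood 2-fold or more above 0 and 22 as far below it, which is 0.982% and 0.655%.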
